A study of Mus musculus with 3 samples.

Results

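The regions described here are those stretches of H3K9me3 in myoblasts that shared at least 1 bp with exactly 1 KAP1 peak. They numbered 4437 of 39526 H3K9me3 regions (11.2%, 95% Wilson interval 10.9 to 11.5), and 72.7% of the 6101 regions that held any KAP1 peak. They were chosen by this overlap, so the overlap is a description here and supports nothing. Both lists came from chromatin immunoprecipitation with sequencing (ChIP-seq) in C2C12, a mouse cell line of myoblasts derived from the C3H strain, in the proliferating stage and without the change of medium used for differentiation. One library was made with a homemade rabbit polyclonal antibody against KAP1 and another with a commercial antibody against H3K9me3, and a further library of the same cells, made with no antibody, has no list analysed here. With 1 library per antibody there is no replicate and no test between conditions. Intervals are 95% intervals that cover counting error over regions only, and neighbouring regions are not independent.

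KAP1, also called TRIM28, does not bind a DNA sequence of its own. KRAB zinc finger proteins bring it to their target sites, and KAP1 in turn brings SETDB1, an enzyme that puts trimethyl marks on lysine 9 of histone H3. The mark can spread from the place of recruitment along neighbouring nucleosomes, because HP1 proteins bind it and attract further methyltransferase. KAP1 and SETDB1 are known for silencing endogenous retroviruses and for marking imprinting control regions and zinc finger gene clusters. Where a single KAP1 peak stands in an H3K9me3 region, the distance from its midpoint to either end of the called region can be read. The end of a called region need not be the end of the mark, since a further region can lie close by.

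The single-peak regions were of middle size. Their median width was 1105 bp (interquartile range 554 to 2081), against 540 bp (298 to 951) in regions without KAP1 and 3847 bp (2717 to 5328.5) in regions with several KAP1 peaks. At least 3 kb of width was reached by 562 of them (12.7%), where 6.09% of all H3K9me3 regions reached it. They covered 6.88 Mb, or 17.3% of the length of the H3K9me3 list. The 1664 regions with several KAP1 peaks, though far fewer, covered 7.01 Mb. Wider regions have more room for a second peak, so the order of these widths follows in part from how the classes were made.

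The 4437 regions drew on 4399 different KAP1 peaks, since a peak can touch more than 1 region. In 125 regions (2.82%) the peak also touched another H3K9me3 region, and in 104 of these its midpoint lay outside the region described. The KAP1 score is a number that the authors deposited for each peak; its meaning is not given in the sources used here, and it serves only to rank peaks within the list. The peaks of single-peak regions had a median score of 117.65 (interquartile range 88.6 to 185.4) and a median width of 668 bp. The remaining peaks of regions with several had a median score of 157.8 and a width of 799 bp, and peaks without H3K9me3 had 95 and 602 bp. A peak with a score above 1000 was held by 27 single-peak regions (0.609%). The share of all KAP1 peaks above that score was not computed, so the count says nothing of excess or lack.

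The midpoint of the KAP1 peak lay inside the H3K9me3 region in 3510 of 4437 cases (79.1%, interval 77.9 to 80.3). The lists give no summit, so the midpoint of the peak stands for the place of KAP1. Each region was divided into a central zone of 20% of its length, an outer zone of 20% at either end, and the stretches between them. The midpoint lay in the central zone in 896 regions (20.2%, interval 19.0 to 21.4), in the stretches between in 1587 (35.8%), in an outer zone in 1027 (23.1%, interval 21.9 to 24.4) and outside the region in 927 (20.9%, interval 19.7 to 22.1). Among midpoints inside, 25.5% were central and 29.3% were in the outer zones, which together make up 40% of a region's length. The share in the outer zones was thus below the share of length that these zones hold, and the central share was above it.

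A midpoint outside the region was mostly a matter of small regions. Width classes include their upper limit and not their lower one. Among regions of up to 0.5 kb, narrower than most KAP1 peaks, the midpoint lay outside in 52.1% (506 of 972, interval 48.9 to 55.2). The share was 23.5% in regions of 0.5 to 1 kb, 11.0% in those of 1 to 2 kb and 5.50% in those of 2 to 3 kb. In the 123 regions over 5 kb no midpoint lay outside, and a count of 0 there allows a share of up to 2.44% by 3 counts of the total, or 3.03% by the upper limit of the Wilson interval. A region narrower than its peak can hold the midpoint only if it lies under the middle of the peak, so the position in these 1477 regions is bounded by size. In the 2960 regions at least as wide as their peak, 9.56% of midpoints lay outside, 27.4% in an outer zone and 21.7% in the central zone.

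**Figure D1:**
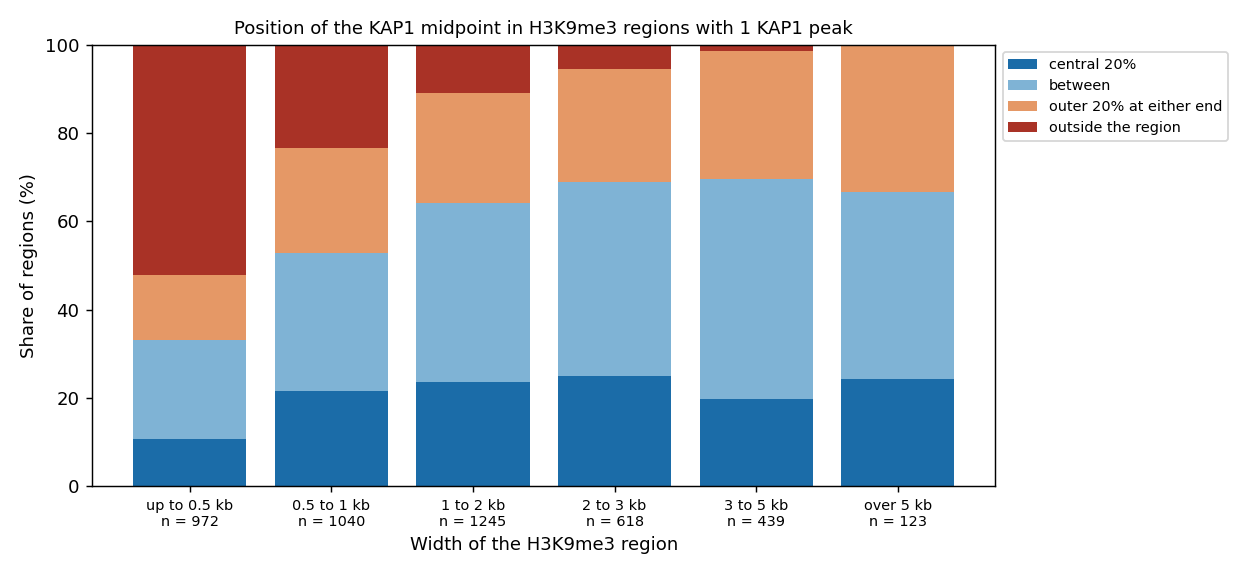
Share of single-peak H3K9me3 regions (%, vertical axis) with the KAP1 midpoint in the central zone, between, in an outer zone or outside, by width class of the region, with the number of regions under each bar. The outside share is 52.1% in the narrowest class and 0 in the widest, while the central share stays between 19.8% and 25.1% in the classes above 0.5 kb.

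In wide regions the midpoints were spread over most of the length and thinned out at the ends. In the 556 regions of at least 3 kb with the midpoint inside, 21.0% of midpoints (interval 17.9 to 24.6) were central and 30.4% (interval 26.7 to 34.3) in the outer zones. With each region divided into 10 equal bins from the lower to the higher coordinate, the first bin held 16 midpoints and the last 40, while each of the bins between them held 49 to 75. In regions of at least 3 kb with several KAP1 peaks, 49.6% of 3102 midpoints (interval 47.9 to 51.4) lay in the outer zones and 15.4% (interval 14.2 to 16.7) in the centre. The intervals of the single-peak and several-peak regions do not meet, but peaks that share a region do not overlap and cannot all stand at its centre, so the difference follows in part from the number of peaks.

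Among wide regions, the best centred example was on chromosome X at 72053423 to 72056516 (mm9, counted from 1), where a KAP1 peak of 604 bp had 1546 bp of H3K9me3 below its midpoint and 1548 bp above it. On chromosome 15 a region of 5619 bp, at 74691009 to 74696627, was divided by its midpoint into 2814.5 and 2804.5 bp around a KAP1 peak with a score of 70.53, near the lowest of the list. A different kind of centring was seen on chromosome 1 at 74703794 to 74707189, where the KAP1 peak was itself 3427 bp wide and reached 17 bp and 14 bp past the ends of the H3K9me3 region. These places show that a central midpoint occurred with narrow and with very wide KAP1 peaks.

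At the other extreme stood regions that lay almost wholly to 1 side of the KAP1 midpoint. On chromosome 6 at 89805132 to 89809971 the region reached 4839.5 bp below the KAP1 midpoint and 0.5 bp above it. A further H3K9me3 region lay 355 bp above its end, just past the end of the KAP1 peak at 89810278. The mark as a whole thus stood on both sides of that peak. A region of 4996 bp on the same chromosome, at 13477967 to 13482962, had 4950.5 bp below and 45.5 bp above, and one on chromosome 15 at 59130372 to 59135376 had 4956.5 bp below and 48.5 bp above. The KAP1 peaks there were 615, 527 and 521 bp wide, and between 50.1% and 59.3% of each was covered by the mark. All of these regions, the 3 of at least 3 kb with the most extreme position, extended toward lower coordinates.

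The lists showed a small offset along the coordinate axis. The KAP1 midpoint lay at a higher coordinate than the region midpoint in 2475 of the 4437 regions (55.8%, interval 54.3 to 57.2) and at a lower one in 1960 (44.2%). The median offset was 46.5 bp toward higher coordinates (interval of the median 35 to 56.5). It was above 0 on all 21 chromosomes, from 12.75 bp on chromosome 15 to 89.75 bp on chromosome 10. By width class the median offset did not change steadily. It was 47.75 bp in regions of up to 0.5 kb and 40.25 bp in those of 0.5 to 1 kb. At 1 to 2 kb it was 51.5 bp, and at 2 to 3 kb it was 30 bp. The 439 regions of 3 to 5 kb had the largest median offset of all classes, with 52.4% of midpoints lying higher. In the 123 regions over 5 kb it was -40 bp, where 60 midpoints lay higher. No interval was computed by class, so a change of direction in the widest class is not shown. The 1220 pairs with no further H3K9me3 region and no further KAP1 peak within 10 kb gave 46 bp (interval 21.5 to 71.5).

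The offset was also visible in the whole lists, which include the single-peak regions. When all KAP1 peaks were moved along the coordinates in steps of 10 bp, the length shared with H3K9me3 was greatest with the peaks moved by 60 bp toward lower coordinates, at 6.146 Mb, against 6.125 Mb without a shift and 6.062 Mb with the peaks moved by 60 bp the other way. How the reads of each library were extended or shifted before calling is not given in the sources used here, and its part in the offset was not tested. With the KAP1 peaks moved by those 60 bp, 4440 regions held exactly 1 peak, and the midpoint lay outside in 19.5%. The shift was picked for the greatest shared length, so a lower share outside follows in part from that choice.

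**Figure D2:**
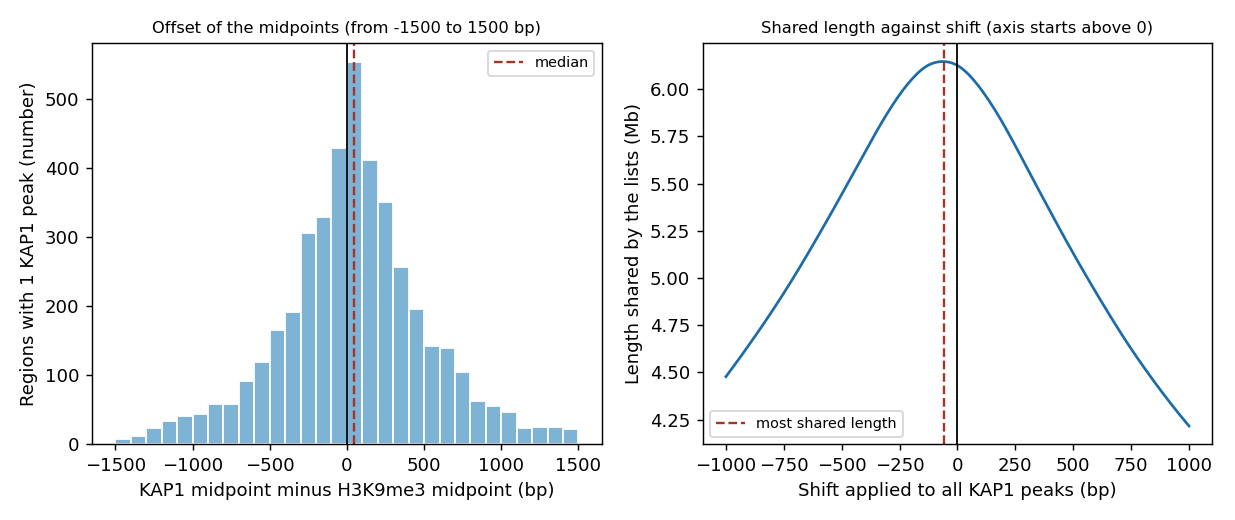
Left, number of single-peak regions by the KAP1 midpoint minus the region midpoint (bp, bins of 100 bp; 112 regions lie beyond the plotted range), with the median of 46.5 bp dashed. Right, length shared by the full lists (Mb) against a shift of all KAP1 peaks (bp), with its highest point at -60 bp dashed; the vertical axis does not start at 0.

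The lengths of H3K9me3 on the 2 sides of KAP1 were compared next. The longer side is named after the fact and so holds at least 50% of the region by definition. Among the 3510 regions with the midpoint inside, the longer side held a median of 70.6% of the region (interval of the median 70.02 to 71.3). Its median length was 944.75 bp (interquartile range 520.5 to 1664.75), and that of the shorter side 356.75 bp (161.6 to 676). The longer side was at least 2 times as long as the shorter in 59.0% of regions (2071 of 3510, interval 57.4 to 60.6) and at least 4 times as long in 29.3%. The second share is that of the outer zones by construction. Midpoints spread evenly along a region would give a median of 75%, and ratios of at least 2 and at least 4 in 66.7% and 40% of regions. All 3 observed values were below these, so the sides were less unequal than an even spread of midpoints gives. The longer side lay toward lower coordinates in 54.3% (interval 52.7 to 55.97), the same direction as the offset.

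Both sides lengthened with the width of the region, and their proportion hardly moved. In regions of 0.5 to 1 kb the longer side had a median of 514.25 bp and the shorter of 215 bp. In regions of 2 to 3 kb the medians were 1692 and 730.25 bp, and in those over 5 kb they were 4574 and 1672.5 bp. The share on the longer side was 69.8%, 70.4% and 72.5% in these classes, and 71.7% in regions of up to 0.5 kb. The shorter side was thus longer in broad regions too, and did not keep a fixed length.

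**Figure D3:**
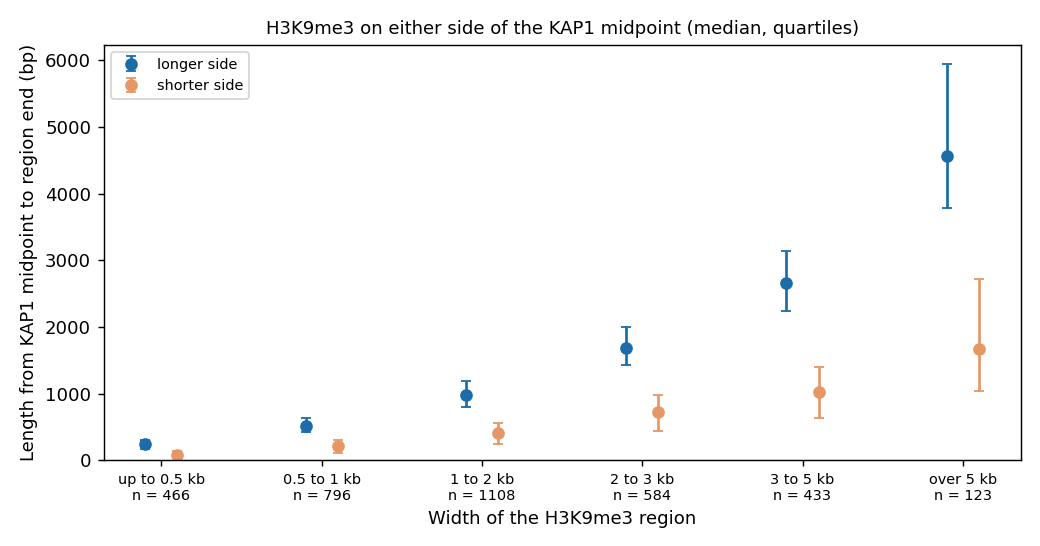
Length of H3K9me3 from the KAP1 midpoint to the region's end (bp) on the longer and the shorter side, by width class, for regions with the midpoint inside; points are medians and bars quartiles over regions. The longer side rises from 238.75 to 4574 bp and the shorter from 87.5 to 1672.5 bp.

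The widest single-peak region spanned 22981 bp on chromosome 10, at 81560488 to 81583468, and had its KAP1 peak close to the middle. The mark reached 12178.5 bp below the midpoint and 10802.5 bp above it, around a peak of 1599 bp with a score of 257.4, and the next KAP1 peak was 30414 bp away from the region. The next widest, 16338 bp on chromosome 2 at 177767277 to 177783614, was uneven, with 4093 bp below and 12245 bp above a peak of 586 bp with a score of 77.3. The third, 15652 bp on chromosome 2 at 150160625 to 150176276, had 7557.5 and 8094.5 bp on its sides and a KAP1 score of 300. Each of them had another H3K9me3 region within 1 kb, at 508, 777 and 294 bp. The breadth of the mark thus occurred with KAP1 scores from the lower and from the upper end of the list.

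The part of the KAP1 peak that lay under its single-peak region was large in most cases. Any other H3K9me3 region that the peak touched is not counted in the covered part. The median covered part was 84.2% (interval of the median 82.3 to 85.8), at least 50% was covered in 3332 regions (75.1%), and the whole peak in 1664 (37.5%, interval 36.1 to 38.9). At most 10% was covered in 149 regions (3.36%). A fully covered peak was found in 0.309% of regions of up to 0.5 kb, in 46.6% of those of 1 to 2 kb and in 95.9% of those over 5 kb. Width sets a ceiling on the covered part, since a region narrower than its peak cannot cover it.

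Regions and peaks met in 4 arrangements. The peak lay wholly inside the region in 1664 cases, with a median region width of 2178 bp and a median of 570.5 bp of further mark at the lower end of the peak and 605.5 bp at the higher end. In 737 cases (16.6%) the region lay inside the peak, with a median width of 305 bp against 730 bp for the peak. The other 2036 were staggered, each with 1 end of the region under the peak. In 1224 of these (60.1%, interval 58.0 to 62.2) the region ran out toward lower coordinates and in 812 toward higher ones. That order held on 20 of 21 chromosomes, and chromosome 15 was the exception, with 42 and 43. Median KAP1 scores were close in all arrangements, from 110.9 to 123.3.

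Where the midpoint lay outside, the region touched only a flank of the peak. In 104 of these cases the peak also touched another H3K9me3 region. The median shared length of the 927 regions with the midpoint outside was 176 bp. The region alone covered a median of 27.1% of the peak. The widest of them, 4351 bp on chromosome 5 at 144011050 to 144015400, met a KAP1 peak of 2862 bp with a score of 1581 at 144014454 to 144017315, shared 947 bp with it and extended 3404 bp below it. Further H3K9me3 regions lay 231 bp below that region and 294 bp above it, and the peak reached across the upper gap into the next region. The region on chromosome 6 at 7671440 to 7675090, 3651 bp wide, shared only 33 bp with its peak and ran 3618 bp beyond it. On chromosome 1 a region of 3545 bp at 64431072 to 64434616 covered 45.8% of its peak, ending just short of the midpoint.

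Wider H3K9me3 regions tended to hold KAP1 peaks with a higher score, loosely. Across the 4437 regions the width of the mark and the KAP1 score were related with a rho of 0.302 (Spearman) and, on log2 values, an r of 0.266 (Pearson). Both values of a point come from the same 2 libraries, and neighbouring points share their surroundings. The median region width was 724.5 bp (interval 652 to 814) in the lowest decile of KAP1 score, 1020.5 bp in the fifth and 2474 bp (interval 2113 to 2675) in the highest. The steps were small, and 983 bp in the sixth decile broke the order, up to 1314 bp in the eighth; they were larger in the last 2. Quartiles were wide throughout, from 373 to 1375 bp in the lowest decile and from 1269 to 3532 bp in the highest.

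KAP1 peaks with a high score are also wide, and that width enters the comparison. Peak width and score had a rho of 0.622 over the regions, and the median peak was 514 bp in the lowest decile and 1051.5 bp in the highest. The part of the region outside the peak had a median of 389 bp in the lowest decile and 1039 bp in the highest, with a rho of 0.119 over all regions. From the second to the eighth decile it stayed between 460 and 580 bp without a steady rise. It was 722.5 bp in the ninth. Within 4 classes of peak width of nearly equal size, the rho of region width and KAP1 score was 0.0565 for peaks of up to 540 bp, 0.187 for those of 541 to 669 bp, 0.399 for those of 670 to 878 bp and 0.411 for wider ones. Pearson's r on log2 values was -0.0366, 0.135, 0.371 and 0.297 in these classes, so among the narrowest peaks the measures differed in sign and neither was far from 0. Both were also near 0 where the midpoint lay outside the region (rho of 0.0590 and r of -0.00721 over 927 regions), while rho was 0.288 to 0.362 in the other zones and 0.330 in the isolated pairs.

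**Figure D4:**
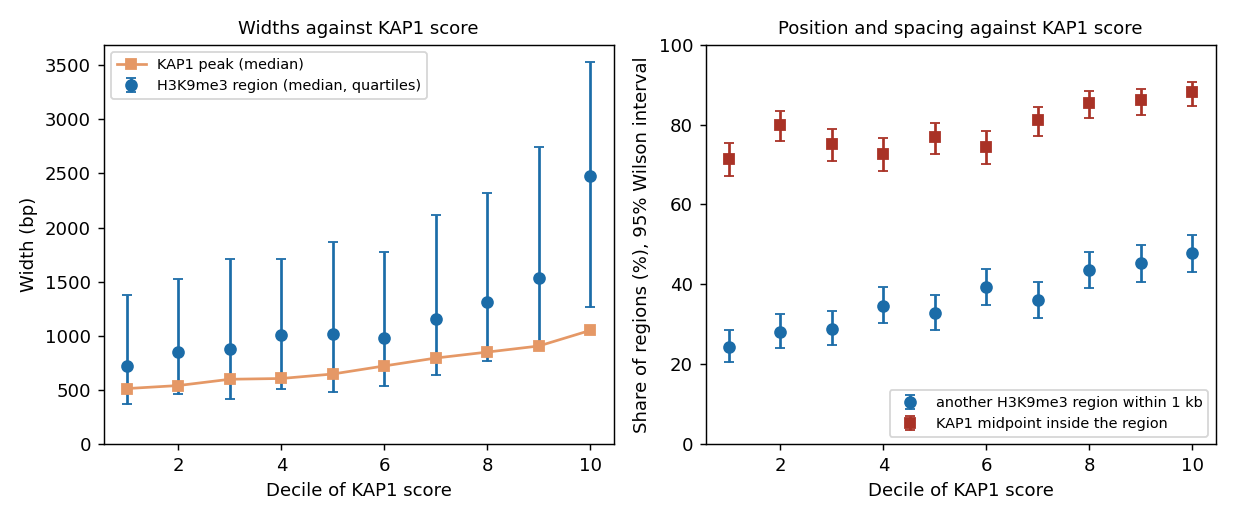
Left, width (bp) of single-peak H3K9me3 regions (median and quartiles) and of their KAP1 peaks (median) by decile of KAP1 score. Right, share of regions (%) with the KAP1 midpoint inside and with another H3K9me3 region within 1 kb, by the same deciles, with 95% Wilson intervals; the shares go from 71.4% to 88.1% and from 24.3% to 47.7%.

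The position of KAP1 and the company of other H3K9me3 regions also differed between low and high scores. The midpoint lay inside the region in 71.4% (interval 67.0 to 75.4) of the lowest decile and 88.1% (interval 84.7 to 90.8) of the highest. That rise was not steady, with 80.0% in the second decile and 72.7% in the fourth. Another H3K9me3 region lay within 1 kb in 24.3% (interval 20.6 to 28.5) of the lowest decile and 47.7% (interval 43.1 to 52.4) of the highest. Median region width rose from 724.5 to 2474 bp between these deciles. Both shares were also higher in wide regions, the second being 27.8% up to 0.5 kb and 50.4% over 5 kb. The part of width in either difference was not tested. By score alone the leading regions were mixed. Scores of exactly 3100 were tied, and the order was set by width. The first, 7648 bp on chromosome 8 at 79969963 to 79977610, enclosed its KAP1 peak of 1103 bp fully, at 39.0% of its length. In the next 2, of 1059 bp on chromosome 1 at 173008783 to 173009841 and of 533 bp on chromosome 6 at 47631628 to 47632160, the region alone covered 40.8% and 7.33% of the peak. The peak on chromosome 6 began at 47629791, and a further H3K9me3 region lay 759 bp below the region named. That peak thus met more of the mark than the 7.33%.

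Single-peak regions stood close to further H3K9me3 regions more often than regions without KAP1 did. Another region lay within 1 kb of 1601 of 4437 (36.1%, interval 34.7 to 37.5), where 22.0% of all H3K9me3 regions had one. The share was 19.3% (interval 18.9 to 19.8) in regions without KAP1 and 37.8% (interval 35.5 to 40.2) in regions with several. The median gap to the nearest region was 2299 bp, 8515 bp and 1844.5 bp in the 3 classes. Within 10 kb the share of single-peak regions was 66.1%, against 54.5% of all regions. No gap in the list was shorter than 164 bp.

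The difference from regions without KAP1 was present in each width class up to 3 kb. At 0.5 to 1 kb, 36.1% of single-peak regions (interval 33.2 to 39.0) and 18.5% of regions without KAP1 (interval 17.8 to 19.3) had a neighbour within 1 kb. At 1 to 2 kb the shares were 37.9% (interval 35.3 to 40.6) and 19.1% (interval 18.1 to 20.1). At 3 to 5 kb they were 40.1% (interval 35.6 to 44.7) and 35.3% (interval 31.3 to 39.5), and over 5 kb 50.4% and 57.2%, so in the 2 widest classes the intervals overlapped. Over 5 kb only 19.8% of regions with several KAP1 peaks (interval 16.5 to 23.6) had such a neighbour, fewer than the single-peak regions of that width (interval 41.7 to 59.1).

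**Figure D5:**
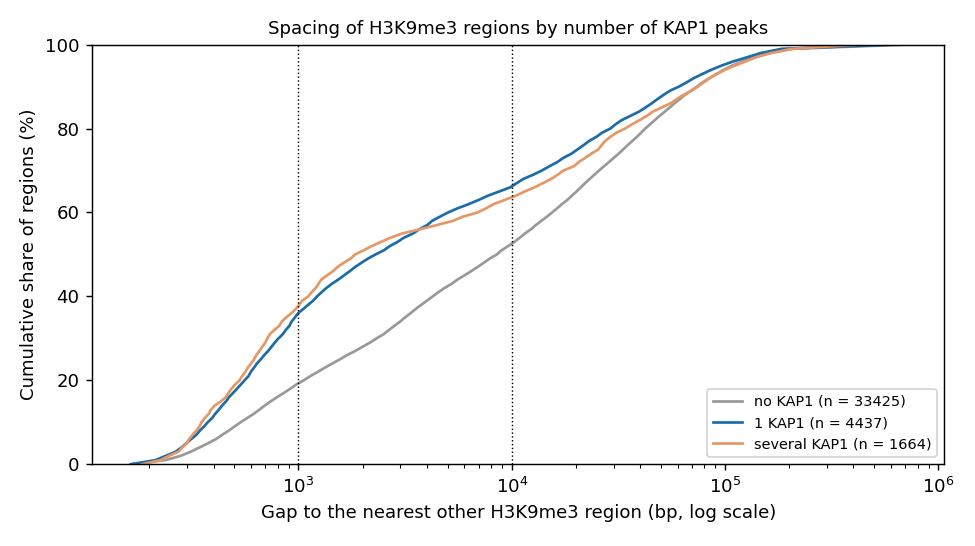
Cumulative share (%) of H3K9me3 regions by the gap to the nearest other H3K9me3 region (bp, log axis), for regions with no, 1 and several KAP1 peaks; dotted lines mark 1 kb and 10 kb. At 1 kb the curves stand at 19.3%, 36.1% and 37.8%.

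Where the KAP1 midpoint lay inside, the neighbour stood more often on the side to which the mark already reached farther. Among the 3510 regions with the midpoint inside, 25.3% (interval 23.9 to 26.7) had a further H3K9me3 region within 1 kb of the end of the longer side and 16.0% (interval 14.8 to 17.2) of the end of the shorter side. Of the 1196 with a neighbour on 1 side only, it was the longer side in 761 (63.6%, interval 60.9 to 66.3). In regions of at least 1 kb the shares were 28.0% and 15.3%. By coordinate there was no such side, since the nearest region lay toward lower coordinates in 49.2% (interval 47.5 to 50.8). Where the midpoint was central, the sides differed less, with median gaps of 15813 bp beyond the longer side and 21314 bp beyond the shorter, against 11942 and 30374 bp for midpoints in the outer zones. In the 927 regions with the midpoint outside, the shares were close. A further region lay within 1 kb beyond the longer side in 166 of them (17.9%, interval 15.6 to 20.5) and beyond the shorter in 169 (18.2%, interval 15.9 to 20.8), and the median gaps were 26239.5 and 20206 bp.

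Near neighbours often held KAP1 themselves. Of all 39526 H3K9me3 regions, 6101 held a KAP1 peak. Of the 1601 single-peak regions with a neighbour within 1 kb, the nearest neighbour held a KAP1 peak in 779 (48.7%, interval 46.2 to 51.1). For single-peak regions whose nearest neighbour was farther away, it did in 26.0% (interval 24.4 to 27.6). For regions without KAP1 that had a neighbour within 1 kb, that neighbour held KAP1 in 14.3% (interval 13.5 to 15.2). Peaks that touch 2 regions count for both, which adds to the first share by an amount that was not computed.

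Joining H3K9me3 regions no more than 1 kb apart changed what a single peak meant for a part of the regions. Of the 4437, 2836 were left as they were. The other 1601 became parts of larger regions, of up to 9 parts, and 894 of those then shared their region with a further KAP1 peak. In the 688 joined regions of 2 or more parts that held 1 KAP1 peak, the median width was 2955.5 bp. Their midpoints were central in 14.7% (interval 12.2 to 17.5), in the outer zones in 39.7% (interval 36.1 to 43.4) and outside in 9.16%. The position depends on width, so regions of like width are set beside them. Joining also lengthens a region at the neighbour's end, which in itself changes the relative position. A like width does not remove this, and 182 of the 1601 had a neighbour within 1 kb on both sides. The difference thus follows in part from the joining. In single-peak regions as called, 25.1% of midpoints were central, 25.6% in the outer zones and 5.50% outside at 2 to 3 kb, and 19.8%, 29.2% and 1.37% at 3 to 5 kb.

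The isolated pairs, 1220 regions (27.5%), give the geometry without neighbours. Their median width was 1050.5 bp and their KAP1 peaks had a median score of 106.5 and a width of 602 bp. The midpoint was central in 17.9% (interval 15.8 to 20.1), in an outer zone in 24.6% and outside in 23.4% (interval 21.2 to 25.9). The peak was fully covered in 41.1% (interval 38.4 to 43.9). The longer side held a median of 72.3% of the region. That median, too, was below the 75% of an even spread of midpoints.

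The next KAP1 peak outside a single-peak region lay a median of 13108 bp away (interquartile range 1734 to 71823). A second peak stood within 10 kb of the peak in 47.5% of regions (2109), where 54.2% of all KAP1 peaks had one, and within 1 kb in 12.7%, where 28.1% of all peaks had one. The rule removes regions with a second peak inside, so the lower shares follow in part from it. Close to the limit of exactly 1 peak, 729 regions had a second KAP1 peak within 1 kb of their ends, with a median width of 1092 bp and a median KAP1 score of 137.0. The 999 regions with 2 peaks had a median width of 3073 bp. At the limit of 1 bp, 94 regions shared no more than 50 bp with their peak, the least being 2 bp, and had a median width of 392 bp. Just outside it, 69 regions without overlap had a KAP1 peak within 50 bp, and their median width was 523 bp.

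Single-peak regions were found on every chromosome of the lists. They made up 7.34% of the H3K9me3 regions of chromosome 15 (216 of 2941, interval 6.46 to 8.34), the lowest share, and 14.3% on chromosome 16 (171 of 1199, interval 12.4 to 16.4), the highest of the autosomes. On chromosome X the share was 12.7% (328 of 2578) and on chromosome Y 9 of 26 (34.6%, interval 19.4 to 53.8). Their median width varied little across the autosomes and X, from 983 bp on chromosome 16 to 1311 bp on chromosome 10. The share with a neighbour within 1 kb varied more, from 25.9% on chromosome 15 to 48.3% on chromosome 12.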

How the data were processed

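ChIP-seq region lists of KAP1 and H3K9me3 in proliferating C2C12 cells were analysed, 1 library each. The submitters' processing notes name Bowtie2 2.2.1 and mm9; the sources used here give no caller, caller setting or control. The score of each region is the authors' deposited value, of unstated meaning; peak names in the KAP1 list have the form that MACS writes. Read depth is unknown. An overlap of 1 bp or more was counted from the deposited positions and checked with bedtools 2.31.1, which gave the same 4437 regions. In simulated lists the code recovered the planted counts of single-peak regions, of central, outer-zone and outside midpoints, and of regions with several peaks. The simulated lists held no narrow regions, and side lengths, covered parts and gaps were not checked with them. Shares carry 95% Wilson intervals, medians carry intervals from order statistics, and no p-value was computed. Python 3.11.15, scipy 1.17.1, pandas 2.3.3, numpy 2.4.6 and matplotlib 3.10.9 were used.

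The regions and measures were chosen with earlier results of these data known. Regions named by position are the first 3 by width, by KAP1 score, by centred and by end position (both at least 3 kb wide) and by width with the midpoint outside, with ties broken by width and position. The coordinate offset, the isolated pairs and the side of the neighbour were examined after the data were seen. The gene, miRNA and promoter tables at hand are on GRCm38.p6, another build, so no gene is named and no sequence is shown.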

Additional observations from a re-analysis of the deposited data

How the results depend on the processing

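Of 85 values recomputed under other settings, 47 stayed within the interval of the value (or within 1.5 times the count) and 38 did not; no correlation or offset changed sign. The number of single-peak regions stayed within 1.5 times under each setting, from 3021 (upper 50% of KAP1 peaks by score) to 4440. Settings on overlap, score, joining or peak position chose these regions anew, so regions that first held several peaks could enter. With at least 50% of the peak covered there were 3503, where 3332 of the 4437 met that limit. The share with the midpoint outside was 16.8% with at least 100 bp shared, 0% with at least 50% of the peak covered (a midpoint must then lie inside), 16.6% in the upper 50% of KAP1 peaks, 10.8% in the upper 50% of H3K9me3 regions, 9.56% in regions at least as wide as their peak and 19.5% with KAP1 peaks moved by 60 bp. The share in the outer zones was 29.2% with 50% of the peak covered, 25.4% in the upper 50% of KAP1 peaks, 25.6% in the upper 50% of H3K9me3 regions and 27.4% in regions at least as wide as their peak. It was 26.7% after joining regions within 1 kb and 9.22% with outer zones of 10%. The central share was 25.3% with 50% of the peak covered, 23.4% in the upper 50% of H3K9me3 regions, 18.2% after joining, 21.7% in regions at least as wide as their peak and 46.9% for the central 50%. The longer side held 71.6% in the upper 50% of KAP1 peaks and 72.2% after joining. The covered part had a median of 87.0% with 100 bp shared, 90.7% in the upper 50% of KAP1 peaks, 89.4% after joining, and 100% with 50% of the peak covered, in the upper 50% of H3K9me3 regions and in regions at least as wide as their peak. Spearman's rho of width and KAP1 score was 0.335 with 50% of the peak covered, 0.252 in the upper 50% of H3K9me3 regions, 0.389 in regions at least as wide as their peak, 0.336 with the H3K9me3 score in place of width and 0.200 with KAP1 width in place of score. A neighbour within 1 kb was found in 39.0% with 50% of the peak covered, 41.9% in the upper 50% of KAP1 peaks, 27.9% in the upper 50% of H3K9me3 regions (neighbours of low score are then gone) and 0% after joining, by construction. It was 17.3% within 500 bp and 66.1% within 10 kb. The median offset was 31 bp with 50% of the peak covered and 58 bp in the upper 50% of KAP1 peaks. Joining in itself changes the relative position of the midpoint, so the shares by position after joining are in part by construction. Width and H3K9me3 score had a rho of 0.985 over the single-peak regions. The H3K9me3 score in place of width is thus nearly the same measure. The upper 50% of H3K9me3 regions by score likewise favours wide single-peak regions. Where no construction is named, the cause was not tested. Moving the peaks and all settings of the offset were added after the data were seen. No paired analysis was possible because each antibody has a single library, and none could be left out. Unknown depth limits what a missing region or neighbour shows.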
